A study of Sus scrofa with 4 samples.

Results

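Porcine 4-cell embryos carried transcripts of all 42 nucleolar genes examined here, and none of the 42 passed the test between embryos treated with the TET inhibitor Bobcat339 and their DMSO controls. The genes are those of RNA polymerase I and ribosome biogenesis, taken from the deposited table by name. The rule took names made of UTP, NOP or RRP followed by a digit, names that begin with POLR1, and 17 further names, namely NPM1, NCL, FBL, DKC1, GAR1, NHP2, UBTF, RRN3, BOP1, PES1, WDR12, NOLC1, TCOF1, FTSJ3, NIP7, EMG1 and BYSL. It found 42 of the 35248 rows, 16 of them through the 17 further names, since none was found under the name NHP2. The rule uses names and no measured value, but it was set with earlier results of these data known.

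The series compared parthenogenetic embryos, grown from electrically activated oocytes without sperm and so without a paternal genome. They were kept for 48 h in PZM-3 medium with bovine serum albumin after an incubation with cytochalasin B, and were collected at the 4-cell stage. The 2 Bobcat339 libraries came from embryos given 50 µM Bobcat339, a small molecule used to inhibit the TET enzymes that oxidise 5-methylcytosine in DNA. The 2 control libraries came from embryos given DMSO, which the labels list at 50 µM as well. The series asks, by its title, what blocking TET does to the transcripts of such embryos. The age and breed of the oocyte donors and the number of embryos per library are not given in the sources used here. No label ties a replicate to a culture of its own, so p-values here reflect a spread between samples that may be technical.

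Ribosomes are built in the nucleolus. RNA polymerase I transcribes the long ribosomal RNA precursor there, small nucleolar ribonucleoproteins (snoRNPs) of the box C/D and box H/ACA classes methylate or pseudouridylate it, and large assemblies of processing factors cut it and fold it with ribosomal proteins into the 40S and 60S subunits. In mammalian embryos the maternal nucleolus is taken apart during oocyte maturation, and working nucleoli form again as the embryonic genome is switched on, which in the pig falls around the 4-cell stage. The libraries, made with the Smart-seq2 system that primes on poly(A) tails, report the mRNAs of these proteins and not ribosomal RNA, so they do not measure the rate of ribosome production. In bulk samples fewer cells carrying a transcript and less of it per cell cannot be told apart.

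Library totals were 14681221 and 13568525 counts with Bobcat339, against 14390560 and 13852262 with DMSO. All 42 genes passed the filter on low counts, the lowest single value being 23 counts (RRP1 in control 2). All 6 oocyte and embryo markers had counts in every library, at levels that differed widely. The highest were BMP15, an oocyte growth factor, at 3719.5 and 4641 CPM under Bobcat339, against 4259.7 and 4450.1 CPM under DMSO (CPM, counts divided by the normalised library size), and WEE2, an oocyte kinase, at 4098 and 4303 CPM under Bobcat339, against 3494 and 4702 CPM under DMSO. The lowest were ZP3, a protein of the zona pellucida, at 21.6 and 22.0 CPM under Bobcat339, against 28.7 and 27.1 CPM under DMSO, and NPM2, an oocyte histone chaperone, at 17.8 and 28.0 CPM under Bobcat339, against 19.1 and 26.6 CPM under DMSO. Of 13 cumulus and granulosa cell markers with a row, 9 were tested, and AMH was at 0 in all 4 libraries; the most abundant were VCAN, a matrix proteoglycan, at 73.8 and 74.1 CPM under Bobcat339, against 57.6 and 81.8 CPM under DMSO, and VIM at 27.4 and 54.3 CPM under Bobcat339, against 43.9 and 33.2 CPM under DMSO. Mitochondrial rows took 4.94% and 4.02% of the counts in the Bobcat339 libraries and 5.59% and 6.36% in the controls. The control libraries differed from each other by more than 2-fold at 18.1% of the 18481 tested rows, and the Bobcat339 libraries at 10.3%.

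The genes spanned a wide range of levels, which are compared between genes only as FPKM, deposited by the authors as counts scaled by gene length and library size. Over the 4 libraries 10 genes averaged at least 50 FPKM, 19 lay between 10 and 50 FPKM, 11 between 1 and 10 FPKM, and 2 below 1 FPKM. NCL, which encodes nucleolin, an RNA-binding chaperone of the nucleolus, was the highest at 197 FPKM (148 to 242 over the libraries). UTP11, a 40S processing factor, followed at 117 FPKM (104 to 128), and then NPM1, nucleophosmin, at 97.0 FPKM (81.9 to 114). The ranges of UTP11 and NPM1 overlapped, as did those of NOLC1 (73.9 to 117 FPKM), POLR1E (75.9 to 95.1 FPKM) and NOP58 (66.8 to 98.3 FPKM) below them, whereas the lowest NCL library stood above every UTP11 library. At the other end were NOP14 at 0.982 FPKM (0.495 to 1.49) and TCOF1 at 0.799 FPKM (0.510 to 1.02), whose ranges overlapped too.

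Proteins that work in 1 complex had unequal transcript levels by FPKM. BOP1, PES1 and WDR12 encode the PeBoW complex of 60S assembly, and their means were 2.35, 36.9 and 9.55 FPKM, with ranges that did not touch (1.96 to 3.11, 27.6 to 50.4 and 7.06 to 14.0). Among the box H/ACA proteins, GAR1 averaged 53.5 FPKM, the pseudouridine synthase DKC1 44.0 FPKM and NOP10 14.5 FPKM, and the NOP10 range (12.7 to 17.3) lay below those of GAR1 (44.0 to 72.8) and DKC1 (32.5 to 58.9), which overlapped. Of the box C/D proteins, the scaffold NOP58 averaged 85.7 FPKM and the methyltransferase FBL, fibrillarin, 24.0 FPKM. The named polymerase subunits ran from POLR1E at 87.2 FPKM and POLR1B at 38.7 FPKM to POLR1A, the largest subunit, at 11.2 FPKM and POLR1C at 5.28 FPKM. The lengths behind these FPKM values are the authors' own, and genes that overlap others are treated further down. The gap between GAR1 and NOP10 rests on these lengths, as their counts were similar. GAR1 had 472 and 374 counts under Bobcat339, against 657 and 400 under DMSO. NOP10 had 479 and 418 counts under Bobcat339, against 561 and 396 under DMSO.

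**Figure D1:**
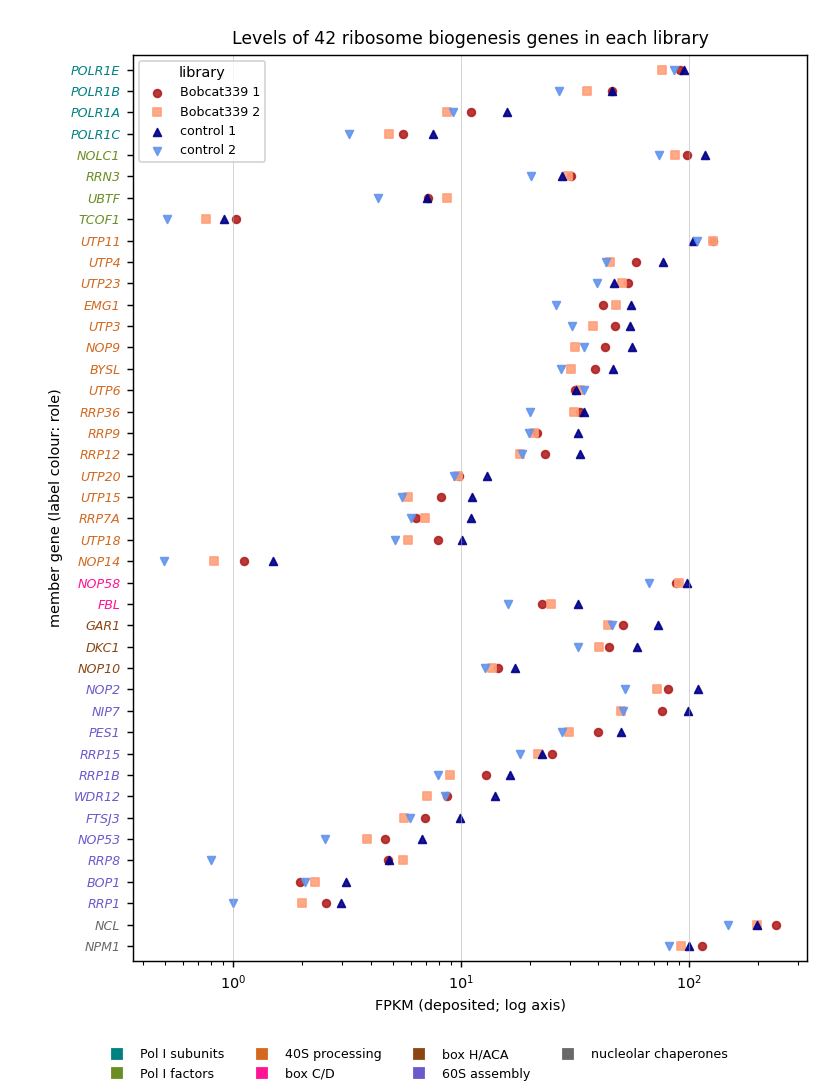
FPKM of each of the 42 genes in the 2 Bobcat339 and the 2 control libraries, on a log axis, grouped by role and ordered by mean level within a role; each point is 1 library. NCL leads and TCOF1 is lowest, and control 1 (dark triangles) and control 2 (light triangles) often lie on either side of the Bobcat339 libraries.

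Between Bobcat339 and control embryos, 0 of the 42 genes passed edgeR's quasi-likelihood test at a Benjamini-Hochberg adjusted p of 0.05 over all 18481 tested rows, where 0.0% of all rows passed. At an unadjusted p under 0.05 there were 0 of the 42, against 4.0% of all rows. DESeq2, which called only 5 rows in all, called 0 of the 42 as well. The smallest unadjusted p, that of WDR12, was 0.107. The log2 fold change was below 0 in 28 genes and above 0 in 14, with a median of −0.12, beside 52.9% below 0 and a median of −0.024 over all tested rows. It ran from −0.55 for WDR12 to 0.83 for RRP8, and the adjusted p was 0.999 for each of the 42. The 95% interval included 0 in all 42 genes. In 27 of them it lay wholly within a 2-fold change in either direction, which was so for 41.1% of all rows, so that a change of that size is outside the interval for these 27, while the other 15 intervals reach further.

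**Figure D2:**
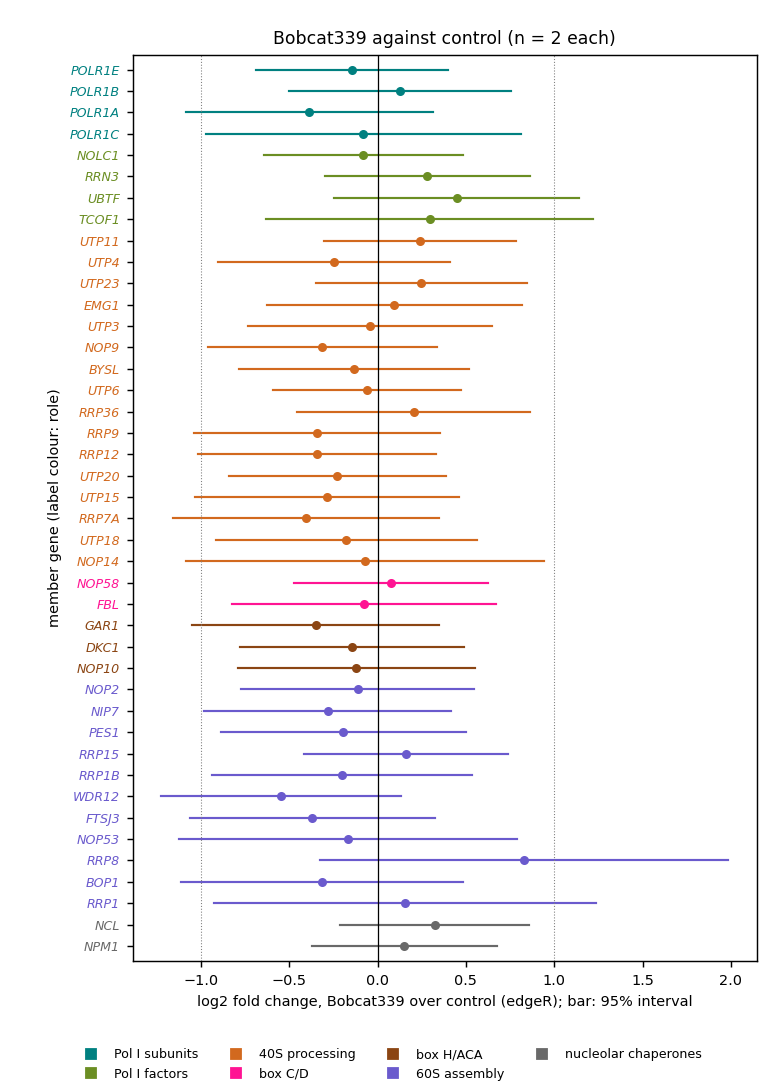
Fitted log2 fold change of Bobcat339 over control for the 42 genes (points) with 95% intervals (bars), coloured by role; dotted lines mark a 2-fold change. All 42 intervals cross 0, and the points lie between −0.55 (WDR12) and 0.83 (RRP8).

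The 4 named subunits of RNA polymerase I had log2 fold changes from −0.39 to 0.12, with a median of −0.11. POLR1A, which forms much of the active site, had 55.1 and 42.5 CPM under Bobcat339, against 81.9 and 45.6 CPM under DMSO. Control 1 was the highest library, while control 2 lay between the Bobcat339 libraries, so the groups overlapped; the log2 fold change was −0.39 (SE 0.33; 95% interval −1.08 to 0.31). POLR1B, the second largest subunit, had 248 and 189 CPM under Bobcat339, against 257 and 144 CPM under DMSO, and both Bobcat339 libraries lay between the controls (log2 fold change 0.12, SE 0.30). POLR1E, a subunit particular to this polymerase, had 250.1 and 205 CPM under Bobcat339, against 268 and 234 CPM under DMSO, with Bobcat339 2 lowest (log2 fold change −0.14, SE 0.26). POLR1C, which RNA polymerase III also contains, had 7.95 and 6.83 CPM under Bobcat339, against 11.1 and 4.57 CPM under DMSO, again with both Bobcat339 libraries between the controls (log2 fold change −0.082, SE 0.42). The POLR1C row overlaps XPO5 on the opposite strand, which had 56.1 times its counts, and the counting may not have kept the strands apart.

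RRN3, UBTF and TCOF1, which act with the polymerase on ribosomal DNA, had log2 fold changes above 0, without passing the test. RRN3, which couples the polymerase to the promoter, had 179 and 171 CPM under Bobcat339, against 169 and 119 CPM under DMSO, and it was among 3 genes with both Bobcat339 libraries above both controls, a pattern found at 13.3% of all rows. Bobcat339 2 exceeded control 1 by little, and the log2 fold change was 0.28 (SE 0.27; 95% interval −0.30 to 0.86). UBTF, the architectural factor that opens ribosomal DNA chromatin, had 47.2 and 56.7 CPM under Bobcat339, against 48.0 and 28.2 CPM under DMSO. Only control 2 stood apart, Bobcat339 1 being level with control 1, and the log2 fold change was 0.45 (SE 0.33; 95% interval −0.25 to 1.14). TCOF1, treacle, a nucleolar cofactor of the polymerase, was scarce at 5.77 and 4.21 CPM under Bobcat339, against 5.29 and 2.86 CPM under DMSO (log2 fold change 0.30, SE 0.44). Its row overlaps CD74 on the opposite strand, whose counts were 74 and 94 under Bobcat339 and 71 and 28 under DMSO, lowest in control 2 as for TCOF1. NOLC1, a phosphoprotein of the nucleolus that binds snoRNPs, was abundant at 557 and 489 CPM under Bobcat339, against 688 and 417 CPM under DMSO (log2 fold change −0.080, SE 0.27).

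Of the 16 factors of 40S processing, most of them known from the yeast small subunit processome, 12 had a log2 fold change below 0 and 4 above, with a median of −0.16. UTP11 was the steadiest gene within groups, with 185 and 184 CPM under Bobcat339, against 156 and 156 CPM under DMSO. Both Bobcat339 libraries lay above both controls, by a fold that the fit puts at 1.18 (log2 0.24, SE 0.26; 95% interval −0.30 to 0.79; adjusted p = 0.999, edgeR). UTP23 was the third gene with the groups apart in this direction, at 96.7 and 89.7 CPM under Bobcat339, against 87.0 and 70.0 CPM under DMSO (log2 fold change 0.25). UTP6 was the single gene of the 42 with both Bobcat339 libraries below both controls, a pattern found at 16.0% of all rows, and the gap was small, with 221 and 231 CPM under Bobcat339, against 232 and 239.8 CPM under DMSO. Under DESeq2 size factors and without scaling 0 genes had this pattern, and 4 and 5 genes had both Bobcat339 libraries above both controls.

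In the other 40S factors control 1 was above control 2. RRP7A had 17.8 and 19.3 CPM under Bobcat339, against 32.2 and 16.8 CPM under DMSO, so control 1 alone was high and the log2 fold change was −0.40 (SE 0.36). RRP12, a large factor of subunit maturation and export known from yeast, had 109 and 83.9 CPM under Bobcat339, against 159 and 85.4 CPM under DMSO, with Bobcat339 2 just below control 2 (log2 fold change −0.34, SE 0.32). UTP4, the protein cirhin, had 146 and 112 CPM under Bobcat339, against 199 and 107 CPM under DMSO (log2 fold change −0.25, SE 0.31). UTP15 had 59.0 and 42.1 CPM under Bobcat339, against 83.8 and 39.7 CPM under DMSO (log2 fold change −0.29, SE 0.35), and both Bobcat339 libraries lay between the controls, as they did for UTP4. NOP14, the scarcest of the 16, had 6.18 and 4.50 CPM under Bobcat339, against 8.50 and 2.71 CPM under DMSO, and the controls differed 3.13-fold.

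The 5 snoRNP proteins had log2 fold changes from −0.35 for GAR1 to 0.075 for NOP58, and none passed the test. FBL had 34.7 and 37.5 CPM under Bobcat339, against 51.7 and 24.4 CPM under DMSO, and NOP58 had 447 and 456 CPM under Bobcat339, against 519 and 338.6 CPM under DMSO. In both, the Bobcat339 libraries were nearly equal and lay between controls that differed 2.12-fold for FBL and 1.53-fold for NOP58, and the log2 fold changes were −0.077 (SE 0.35) and 0.075 (SE 0.26). DKC1, mutated in human dyskeratosis congenita, had 208 and 186 CPM under Bobcat339, against 285 and 151 CPM under DMSO (log2 fold change −0.14, SE 0.30). GAR1 had 32.1 and 27.2 CPM under Bobcat339, against 46.9 and 28.6 CPM under DMSO, where control 1 alone was high (log2 fold change −0.35, SE 0.33).

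Among the 11 factors of 60S assembly, 8 had a log2 fold change below 0 and 3 above, with a median of −0.19. WDR12, of the PeBoW complex, had the lowest fold change of the 42, with 58.8 and 47.3 CPM under Bobcat339, against 98.0 and 56.9 CPM under DMSO. Control 1 stood far above the rest, and control 2 lay between the Bobcat339 libraries, so the groups overlapped (log2 fold change −0.55, SE 0.32; 95% interval −1.23 to 0.13; adjusted p = 0.999, edgeR). Its partners PES1, at 90.2 and 66.8 CPM under Bobcat339, against 118 and 61.9 CPM under DMSO, and BOP1, at 6.59 and 7.63 CPM under Bobcat339, against 10.8 and 6.85 CPM under DMSO, had log2 fold changes of −0.19 and −0.31. FTSJ3, a methyltransferase of ribosomal RNA, had 49.2 and 39.3 CPM under Bobcat339, against 72.1 and 42.1 CPM under DMSO (log2 fold change −0.37, SE 0.33), and NIP7 had 159 and 103 CPM under Bobcat339, against 213 and 106 CPM under DMSO, the widest gap between the Bobcat339 libraries of any member (log2 fold change −0.28, SE 0.33).

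NOP2, a ribosomal RNA methyltransferase, had 279 and 247 CPM under Bobcat339, against 389 and 180.5 CPM under DMSO, and RRP1B had 94.8 and 65.2 CPM under Bobcat339, against 126 and 58.0 CPM under DMSO. In both genes the Bobcat339 pair lay between controls about 2-fold apart (2.15-fold and 2.16-fold). NOP53 had 6.45 and 5.30 CPM under Bobcat339, against 9.72 and 3.50 CPM under DMSO, with the controls 2.78-fold apart. RRP8, a nucleolar methyltransferase of ribosomal RNA, had 10.4 and 12.0 CPM under Bobcat339, against 10.9 and 1.71 CPM under DMSO, which is 153 and 165 counts under Bobcat339 against 152 and 24 under DMSO. Control 2 alone was low, 6.34-fold under control 1, and the log2 fold change of 0.83 (SE 0.55; 95% interval −0.32 to 1.98) was the highest of the 42 without passing (adjusted p = 0.999, edgeR). It was 0.071 without control 2 and 2.70 without control 1, fits that each rest on a lone control, and limma-voom put it at 1.36 with all 4 libraries. ILK, on the opposite strand of the same locus, had 202 and 176 counts under Bobcat339 and 195 and 147 under DMSO.

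The abundant nucleolar chaperones both had log2 fold changes above 0. NCL had 667 and 543 CPM under Bobcat339, against 563 and 404 CPM under DMSO; Bobcat339 1 was highest and control 2 lowest, with Bobcat339 2 below control 1 (log2 fold change 0.32, SE 0.25; 95% interval −0.21 to 0.86). NPM1 had 647 and 518 CPM under Bobcat339, against 587 and 461 CPM under DMSO in the same order of libraries (log2 fold change 0.15, SE 0.25). For both, the groups overlapped and the interval excluded a 2-fold change.

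What most of the 42 genes shared was a gap between the 2 control libraries. Control 1 was above control 2 in 41 of them, UTP6 being the exception, whereas over all tested rows this was so for 49.8%. Control 1 was the highest and control 2 the lowest of the 4 libraries in 23 genes, against 15.6% of all rows, so that both Bobcat339 libraries lay between the controls in those 23. Bobcat339 1 was above Bobcat339 2 in 34 genes, against 49.5% of all rows. These are counts over genes that share 4 libraries, and they describe the libraries and test nothing. Under DESeq2 size factors and without scaling, control 1 was above control 2 in 40 of the 42, UTP11 changing side, and the 23 stayed 23 in number under both.

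The gap was also wide. The median absolute log2 difference between the controls was 0.84 over the 42 genes (1.78-fold), beside 0.50 over all tested rows. The controls were more than 2-fold apart in 12 of the 42 genes, against 18.1% of all rows. Between the Bobcat339 libraries the median was 0.27, beside 0.27 over all rows. No gene of the 42 was more than 2-fold apart there, against 10.3% of all rows. The fitted difference between the groups had a median absolute size of 0.20, and it was smaller than the difference between the controls in 40 of the 42 genes (70.4% of all rows). The gap tended to be wider in genes of low level. Across the 42, the Spearman correlation of the log2 ratio of control 1 to control 2 with the mean FPKM was −0.47, a description over genes of the same 4 libraries in which low counts add scatter. RRP8, NOP14 and NOP53 had the widest control gaps among genes of at least 5 CPM, and NIP7, RRP1B and UTP15 the widest gaps between the Bobcat339 libraries.

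Summed over the 42 genes, the level was 5875 and 5062 CPM under Bobcat339, against 6673 and 4287 CPM under DMSO. As a share of all deposited counts this was 0.589% and 0.514% in the Bobcat339 libraries and 0.649% and 0.434% in the controls. Both Bobcat339 values lay between the control values. The roles did not all follow this order. By the median deviation of log2 CPM from each gene's 4-library average, the polymerase subunits, polymerase factors, 40S, 60S and H/ACA groups had control 1 highest, Bobcat339 1 next and control 2 lowest. Among the polymerase factors, control 2, at −0.50, lay far from the other libraries, which were at 0.15 in Bobcat339 1, 0.033 in Bobcat339 2 and 0.20 in control 1. In the box C/D pair Bobcat339 2 (0.067) was above Bobcat339 1 (−0.0027), and in the chaperones Bobcat339 1 (0.28) was the highest.

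**Figure D3:**
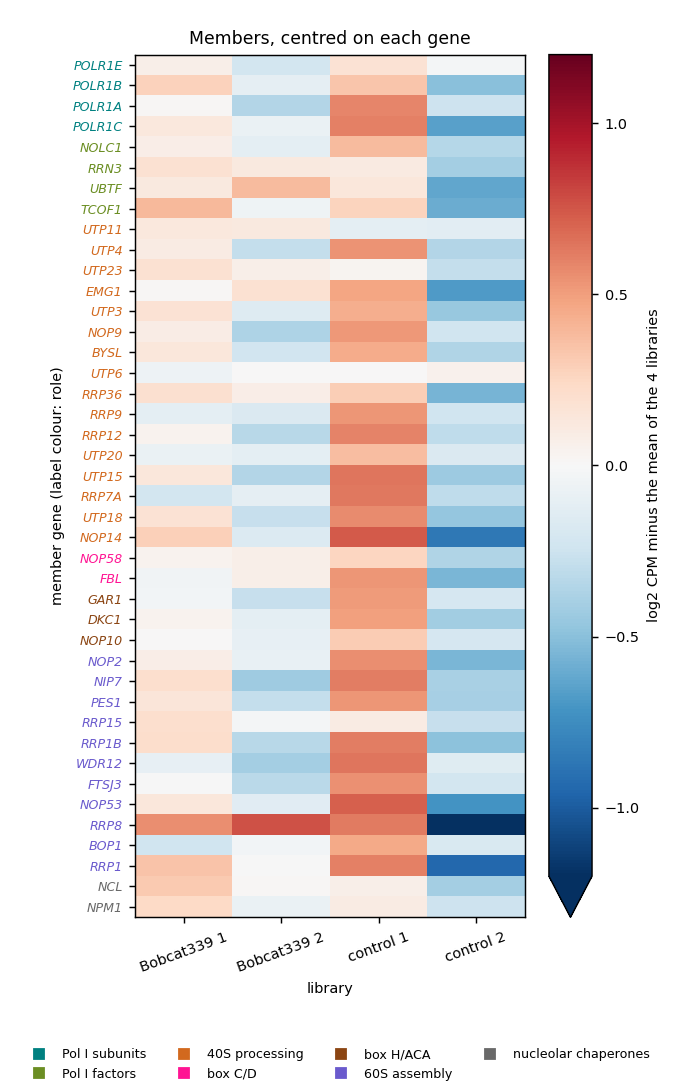
Deviation of log2 CPM from each gene's 4-library average, as a colour scale from blue (below the mean) to red (above), with the libraries across and the 42 genes, grouped by role, down the page. The control 1 column is red and the control 2 column blue in nearly every row, with UTP6 the exception in their order; RRP8 in control 2 lies beyond the colour scale.

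Because the controls lay so far apart, the direction of the comparison depended on which of them was used. Against control 2 alone the log2 fold change was above 0 in 39 of the 42 genes, with a median of 0.36, and against control 1 alone it was below 0 in 34, with a median of −0.47. The sign differed between these fits in 31 genes, each time above control 2 and below control 1. Over all rows this kind of change was found in 4509 of 18467, and either kind of change of sign in 51.3%. The fits share the Bobcat339 libraries, and each assumes that the lone control varies as the Bobcat339 pair does.

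Without control 1, edgeR called 4 genes higher (EMG1, NCL, RRP8 and UBTF) and 0 lower, where 2.03% of all rows were called higher and 0.887% lower. Without control 2 it called WDR12 lower and 0 higher, where 1.73% of all rows were called lower and 0.74% higher. These calls turned on the filter. With the rows tested in all 4 libraries kept, only RRP8 was called higher without control 1 (0.0487% of all rows) and 0 lower (0.0108%), and NIP7, RRP12 and WDR12 were called lower without control 2 (2.88% of all rows) and 0 higher (1.34%). RRP8 without control 1 and WDR12 without control 2 were called under both filters. Leaving out either Bobcat339 library gave 0 calls in either direction under both filters.

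Some genes kept their side against both controls. UTP11 had a log2 fold change of 0.24 against control 2 and 0.27 against control 1. The same values were 0.88 and 0.14 for UBTF, 0.56 and 0.079 for RRN3, 0.58 and 0.14 for NCL and 0.41 and 0.13 for UTP23. They were 0.34 and 0.023 for NPM1, and RRP15, a factor of 60S assembly known from yeast, also stayed above 0 (0.36 and 0.020). With RRP8 (2.70 and 0.071), these were the 8 genes above 0 in both fits, beside 4571 of the 18467 rows. WDR12 (−0.10 and −0.85), POLR1E (−0.040 and −0.20) and UTP6 were the 3 below 0 in both, beside 4427 of the 18467 rows.

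**Figure D4:**
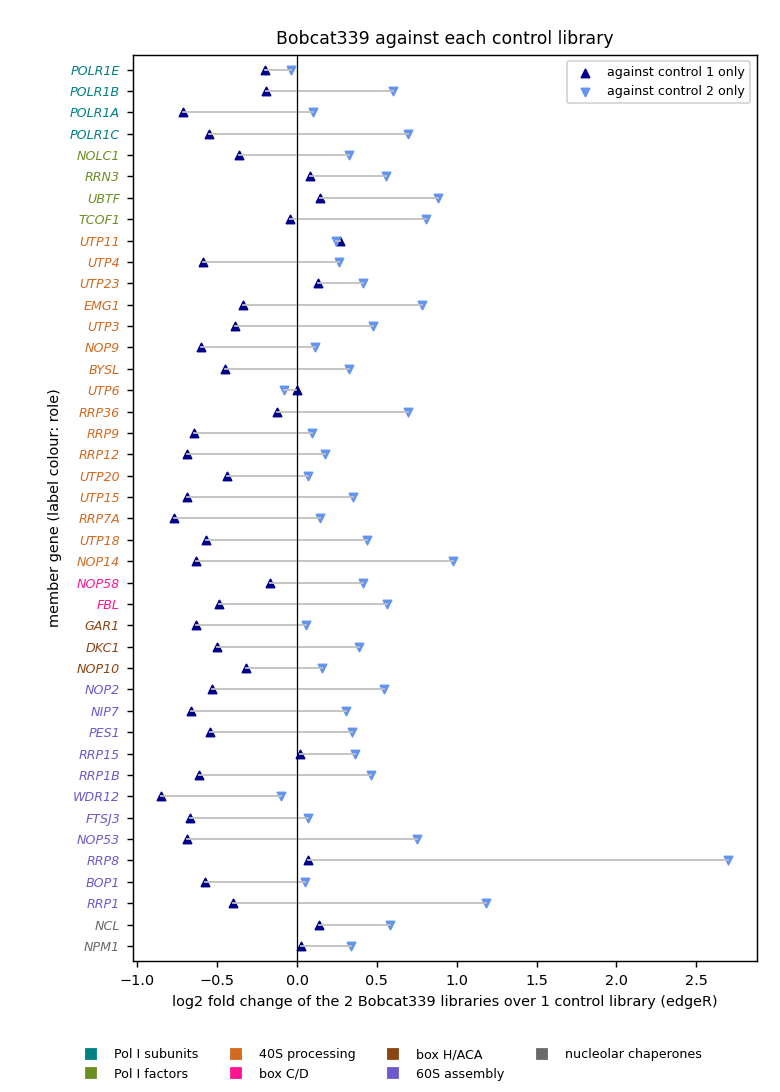
Log2 fold change of the 2 Bobcat339 libraries over control 1 alone (dark triangles) and over control 2 alone (light triangles) for each of the 42 genes, joined by a grey line. In 31 genes the line crosses 0, from below 0 against control 1 to above 0 against control 2.

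Most genes of the pathway outside the name rule also had control 1 above control 2. In 5 lists with 123 names, 105 genes were tested and 0 passed in either direction, with 2 at an unadjusted p under 0.05, against 4.0% of all rows. Their log2 fold change was below 0 in 76 and had a median of −0.12. Control 1 was above control 2 in 95 of the 105 (49.8% of all rows), and it was the highest with control 2 the lowest in 55. The lists were other polymerase I machinery (0 of 12 passed, median 0.013), other 40S factors (0 of 32, −0.14), other 60S factors (0 of 38, −0.11), snoRNP assembly (0 of 9, −0.17) and the RNA exosome, which trims ribosomal RNA precursors (0 of 14, −0.18).

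In the 10 genes with the smallest p of these lists, 2 from each, control 1 was the highest library, against 32.7% of all rows. Control 2 was the lowest in EXOSC2 alone, against 28.4% of all rows. These genes were picked by p, and all 10 had a log2 fold change below 0, which by itself favours a high control library. ZNRD1, a small polymerase I subunit now named POLR1H, had 12.5 and 6.61 CPM under Bobcat339, against 23.9 and 12.7 CPM under DMSO (log2 fold change −0.94, SE 0.40), where Bobcat339 1 lay level with control 2. The shared polymerase subunit POLR2E had 278 and 254 CPM under Bobcat339, against 378 and 325 CPM under DMSO (log2 fold change −0.40, SE 0.25), with both Bobcat339 libraries below both controls. The helicase DDX47 had 70.0 and 53.0 CPM under Bobcat339, against 126 and 66.9 CPM under DMSO (log2 fold change −0.65), and NOL11 of the 40S pathway had 64.4 and 47.8 CPM under Bobcat339, against 116 and 57.9 CPM under DMSO (−0.63). The 60S GTPase GNL2 had 90.3 and 58.4 CPM under Bobcat339, against 153 and 72.8 CPM under DMSO (log2 fold change −0.60), and the large ATPase MDN1 had 28.5 and 25.2 CPM under Bobcat339, against 44.9 and 30.6 CPM under DMSO (−0.49). In DDX47, NOL11, GNL2 and MDN1 control 1 alone stood high, and in DDX47, NOL11 and MDN1 control 2 was near Bobcat339 1. Of the snoRNP assembly factors, PIH1D1 had 12.8 and 13.1 CPM under Bobcat339, against 19.2 and 17.2 CPM under DMSO (log2 fold change −0.49) and RUVBL2 117 and 75.8 CPM under Bobcat339, against 179.7 and 81.0 CPM under DMSO (−0.44). The exosome subunits EXOSC8, at 3.80 and 3.71 CPM under Bobcat339, against 10.4 and 4.86 CPM under DMSO (−1.02), and EXOSC2, at 9.92 and 7.34 CPM under Bobcat339, against 20.4 and 7.07 CPM under DMSO (−0.67), completed the set. The adjusted p was 0.999 for each of these 10 genes (edgeR).

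The marker lists of the embryo and of other cells did not share the order with control 1 highest and control 2 lowest. Of the tested markers, the embryo marker KLF17 alone had it. KLF17 was at 1147 and 1188 CPM under Bobcat339, against 1414 and 984 CPM under DMSO. Summed over the 6 oocyte and embryo markers the level was 9959 and 11508 CPM under Bobcat339, against 10118 and 11172 CPM under DMSO. The libraries numbered 2 were thus the higher of each pair, in a sum made up mostly of BMP15 and WEE2. The 9 tested cumulus and granulosa markers summed to 119 and 159 CPM under Bobcat339, against 127 and 141 CPM under DMSO, and 0 of the 9 passed. Of 7 blood and immune markers with a row 4 were tested and 0 passed, and they summed to 9.99 and 13.1 CPM under Bobcat339, against 11.8 and 9.35 CPM under DMSO, with CD14 and CD74 the most abundant. HBB held 1 and 3 counts under Bobcat339, against 3 and 2 under DMSO. The part of these markers, and of the mitochondrial share given above, in the gap between the controls was not tested.

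**Figure D5:**
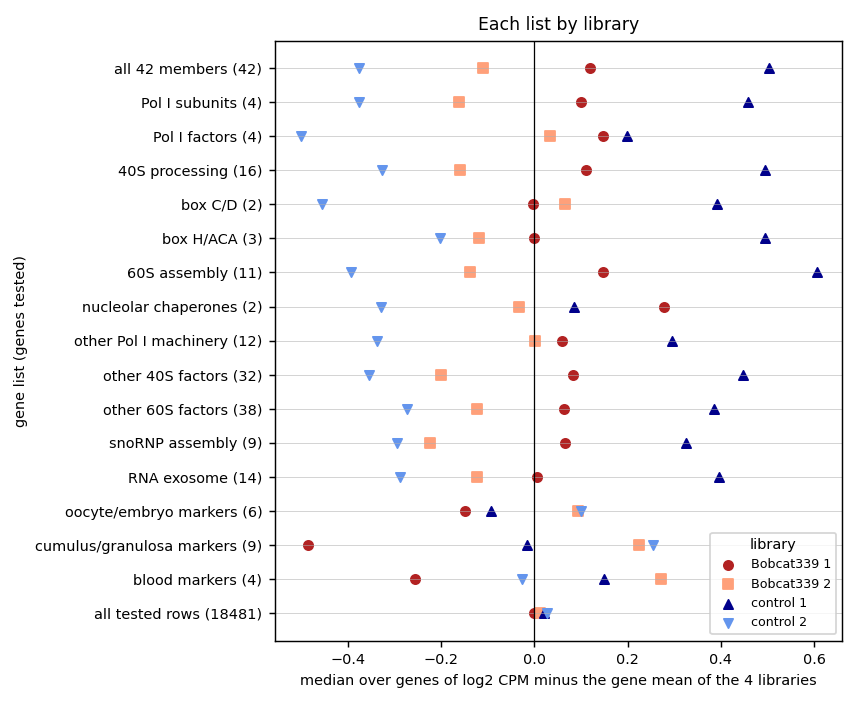
Median over each list's genes of the deviation of log2 CPM from the gene's 4-library average, 1 point per library, with the number of tested genes in brackets. For the 42 genes the medians are 0.12 and −0.11 in the Bobcat339 libraries and 0.50 and −0.37 in the controls; the other pathway lists have the same outer libraries, and the marker lists do not.

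Several of the genes lie near each other on their chromosomes, by the deposited coordinates, which match Sscrofa11.1. RRP1B (chromosome 13: 206629177 to 206655584, plus strand) and RRP1 (chromosome 13: 206722596 to 206735997, plus strand) are paralogs 67.0 kb apart. RRP1 had 4.21 and 3.27 CPM under Bobcat339, against 5.07 and 1.64 CPM under DMSO, so that both had control 1 highest and control 2 lowest, and as paralogs they may share reads. NIP7 (chromosome 6: 17642098 to 17645404, minus strand) and UTP4 (chromosome 6: 17782199 to 17818173, minus strand) are 136.8 kb apart, and NOP58 (chromosome 15: 105893108 to 105926771, plus strand) and WDR12 (chromosome 15: 106380767 to 106409899, minus strand) 454.0 kb. EMG1 and NOP2 lie 354.5 kb apart on chromosome 5 with 25 other named genes between them. RRP36 and POLR1C lie 417.0 kb apart on chromosome 7 with 16 between them. EMG1 and NOP2 differed in the order of the Bobcat339 libraries. EMG1, a methyltransferase of ribosomal RNA, had 81.8 and 92.0 CPM under Bobcat339, against 112 and 50.5 CPM under DMSO, with Bobcat339 2 the higher, whereas for NOP2 Bobcat339 1 was the higher.

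In 22 of the 42 genes the row overlaps another row with counts, so with the strand setting unknown some values may hold or lack shared reads. For POLR1A the overlapping PTCD3 had 1.09 times its counts, for FTSJ3 DDX42 had 3.27 times, for UTP18 MBTD1 had 1.71 times and for UTP20 ARL1 had 1.39 times, all on the opposite strand. Rows with Rfam names inside NCL, NOP58 and DKC1 held under 1% of the host gene's counts. The 20 genes without such an overlap included NPM1, NOLC1, UTP11, UBTF, WDR12, GAR1 and POLR1E.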

How the data were processed

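RNA was measured in 2 Bobcat339 and 2 control libraries, grouped by their titles and treatment label. The authors deposited raw counts and FPKM for each gene and library, per the file headers. The tools named in the submitters' processing notes, with no role given, are HISAT2 2.0.5, HTSeq, Trimmomatic and DESeq2 1.16.1, and the build is Sscrofa10.2. The deposited coordinates follow Sscrofa11.1 instead, as 98.8% of 14166 names, and all 42 genes described, overlap the RefSeq gene of that name there. FPKM follow from the counts, the library total and a gene length never above the deposited length, itself another number with no stated method. Whether counting used strand is not stated in the labels or headers. Columns of samples not used here number 0.

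Bobcat339 was compared with control by edgeR 4.0.16 (R 4.3.3; rows kept by filterByExpr at 10 counts, TMM scaling, glmQLFit, glmQLFTest, Benjamini-Hochberg over all 18481 tested rows). This kept 99.7% of the counts, with a common biological variation of 26.4%. Standard errors and 95% intervals come from the F statistic, and CPM are TMM-normalised. Medians per library use log2 CPM with a prior count of 2. A total of 3 counts corresponds to 0.204 to 0.221 CPM, a floor for counting error only, as the reads carry no molecular identifiers. Alternatives were DESeq2 1.42.0, limma-voom (limma 3.58.1), limma on log2(FPKM + 1), other scalings and filters, the replicate block and each library left out. Genes were named by rule: the 5 smallest p in each direction, the polymerase I genes, the 2 highest FPKM of each role, the widest gaps within a group, and for other lists the 2 smallest p, or for markers the 2 highest FPKM. Genes outside it were named after their values were seen. The genes, lists and roles were chosen with earlier results of these data known.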

Additional observations from a re-analysis of the deposited data

How the results depend on the processing

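No gene of the 42 passed under other scalings, other filters, DESeq2, limma-voom, limma on log2(FPKM + 1), the replicate number as a block or without the 50 most abundant rows. The number of all rows called was 0 in these fits except for 5 with DESeq2 and 44 (23 higher, 21 lower) with the replicate block. Whether same-numbered libraries share more than a number is not stated, 2 pairs are too few to establish a pairing, and the correlation of their replicate differences over rows was 0.16. Leaving out a library gave 0 to 780 called rows, 0 to 4 of the 42 genes, 0 to 11 of the other pathway genes and 0 to 1 marker (CD74), from fits in which the lone library is assumed to vary like the other group. Without control 1 the count was 586 rows, or 11 with the rows of all 4 libraries kept, and without control 2 it was 494, or 780, a filter added after the data were seen. Of the other pathway genes, 3 were called without control 1, and 8 (or 11 with the added filter) without control 2. The median log2 fold change of the 42 ran from −0.47 to 0.36 with a library left out (0.36 without control 1, 0.060 without Bobcat339 2) and from −0.12 to −0.024 in the other fits save the filter at 5 CPM in 2 libraries (−0.13, 41 genes). Between the fits against each control alone, the sign differed in 31 of the 42 genes and in 51.3% of all rows. With any library left out, 33 of the 42 log2 fold changes changed sign, a count not taken over all rows. Of the genes named by rule, those that did ran from −0.71 to 0.098 for POLR1A, −0.77 to 0.14 for RRP7A, −0.67 to 0.072 for FTSJ3, −0.69 to 0.18 for RRP12, −0.046 to 0.81 for TCOF1, −0.30 to 0.042 for POLR1E, −0.20 to 0.60 for POLR1B, −0.55 to 0.69 for POLR1C and −0.17 to 0.41 for NOP58. They ran from −0.49 to 0.56 for FBL, −0.63 to 0.053 for GAR1, −0.50 to 0.39 for DKC1, −0.53 to 0.54 for NOP2, −0.66 to 0.31 for NIP7, −0.36 to 0.33 for NOLC1, −0.024 to 0.35 for NPM1, −0.59 to 0.27 for UTP4 and −0.63 to 0.98 for NOP14. They also ran from −0.69 to 0.75 for NOP53, −0.61 to 0.46 for RRP1B and −0.69 to 0.35 for UTP15. With all 4 libraries, the sign of genes named by rule changed to 0.051 for POLR1C, 0.021 for FBL, 0.14 for NOP14 and 0.0057 for NOP53 with limma-voom, to 0.045 for POLR1C, 0.040 for FBL, 0.011 for NOP2 and 0.026 for NOP14 with limma on log2(FPKM + 1), and to 0.027 for POLR1C, 0.016 for FBL and 0.091 for NOP14 with the replicate block; UTP3, outside that rule, changed to 0.018 with limma-voom and 0.015 with the block. The cause of these changes was not tested. Each group has 2 libraries, and genes under 5 CPM, such as RRP1, rest on few counts in control 2.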

Other observations

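Rows outside the name rule carry further genes of this machinery by an identifier table. ENSSSCG00000009310, which that table names POLR1D, a subunit shared by RNA polymerases I and III, had 323 and 311 CPM under Bobcat339, against 369 and 204 CPM under DMSO (log2 fold change 0.15, SE 0.29, edgeR adjusted p = 0.999). At 401 FPKM over the 4 libraries it exceeded NCL, and its Bobcat339 libraries lay between the controls. ENSSSCG00000027676, named NOP56, the partner of NOP58 in box C/D snoRNPs, held only 9 and 21 counts under Bobcat339, against 9 and 6 under DMSO, and was removed by the filter on low counts. That is far below the 6579 and 6276 counts of NOP58 under Bobcat339 and its 7257 and 4743 under DMSO. Whether the row named NOP56 covers the whole gene was not examined, so its low counts may not give the level of NOP56 mRNA. TWISTNB, the older name of POLR1F, had 133 and 129 CPM under Bobcat339, against 162 and 90.7 CPM under DMSO. CD3EAP, the older name of POLR1G, was nearly level across libraries, at 54.8 and 59.4 CPM under Bobcat339, against 61.0 and 59.4 CPM under DMSO. These rows were picked after their values were seen.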
